A study of Mus musculus with 8 samples.

Results

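Cholesterol and fatty acid synthesis genes were followed across sorted fractions of MAM326, a mouse mammary cancer cell line. The 31 genes were taken by name from the array's annotation and comprise 14 enzymes of sterol synthesis, the sterol carrier gene Stard4, 5 regulators of the SREBP pathway, 5 genes that supply or assemble fatty acids, and 6 elongases and desaturases. All 31 were measured, among 19701 features (genes or unnamed transcripts, 1 probe each) tested in all, and all 49 of their probes passed the filter on dim probes.

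The study profiled mRNA on 8 one-colour Agilent arrays, 4 for GFP-positive cells and 4 for GFP-negative cells, and its title concerns a stem cell population of mouse mammary cancer. Both fractions came from the same line, grown in DMEM with heat-inactivated foetal bovine serum and separated by fluorescence-activated sorting 2 days after seeding. Each labelling started from 20 ng of total RNA. Cells were sorted in 4 independent experiments at different passages, but arrays are not tied to experiments in the labels, so the p-values below measure the spread between these arrays. Neither what drives GFP nor whether the line is a single clone is given in the sources used here.

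Cells make cholesterol from acetyl-CoA through mevalonate, farnesyl diphosphate, squalene and lanosterol. The genes of this route are switched on together by the SREBP transcription factors, encoded by Srebf1 and Srebf2. When membranes are poor in sterol, the escort protein Scap carries the SREBPs from the endoplasmic reticulum to the Golgi, where they are cut and released to the nucleus, and when sterol is plentiful the Insig proteins hold the Scap complex back. Fatty acid synthases, elongases and desaturases are under the same factors to varying degrees, and LXR, a receptor for oxidised sterols, raises both Srebf1 and the cholesterol exporters.

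Levels below are log2 processed signal relative to the 75th percentile of the same array, so that 0 is that percentile, and the error of a group's mean level is the SD of its 4 arrays. Levels of different genes come from different probes and are not compared with each other. Between 45.1% and 57.4% of probes were well above background per array, and every member was well above background on all 8 arrays. All 6 epithelial markers were well above background on all 8 arrays. Krt8 lay between 6.78 and 7.86, Krt18 between 8.13 and 8.82 and Krt14 between 4.31 and 5.76. Epcam lay between 2.16 and 3.44, Cdh1 between 0.07 and 1.14 and Krt5 between -4.75 and -2.44. Of the adipocyte markers, Adipoq, Plin1, Cidec and Lep did not pass the filter on dim probes and only Fabp4 did. Of 5 leukocyte markers Cd68, Csf1r and Cd3e passed it, and Ptprc and Adgre1 did not. Of 3 endothelial markers Kdr and Pecam1 passed it, and Cdh5 did not.

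None of the 31 genes differed between GFP-positive and GFP-negative cells past an adjusted p of 0.05 (limma's moderated test, Benjamini-Hochberg over all features). Of all features, 505 did (2.56%), 359 of them higher and 146 lower in GFP-positive cells. The members' adjusted p-values ran from 0.0535 to 0.993. At an unadjusted p under 0.05, 1 member was higher (Dhcr7), against 7.83% of all features, and 2 were lower (Acaca and Acly), against 15.1% of all features. The median log2 difference of the members was -0.12, beside -0.06 over all features, and 25 of 31 were below 0, against 60.7% of all features. The groups did not overlap in 2 of the 31 genes, Dhcr7 and Acaca (6.45%), against 16.7% of all features.

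**Figure D1:**
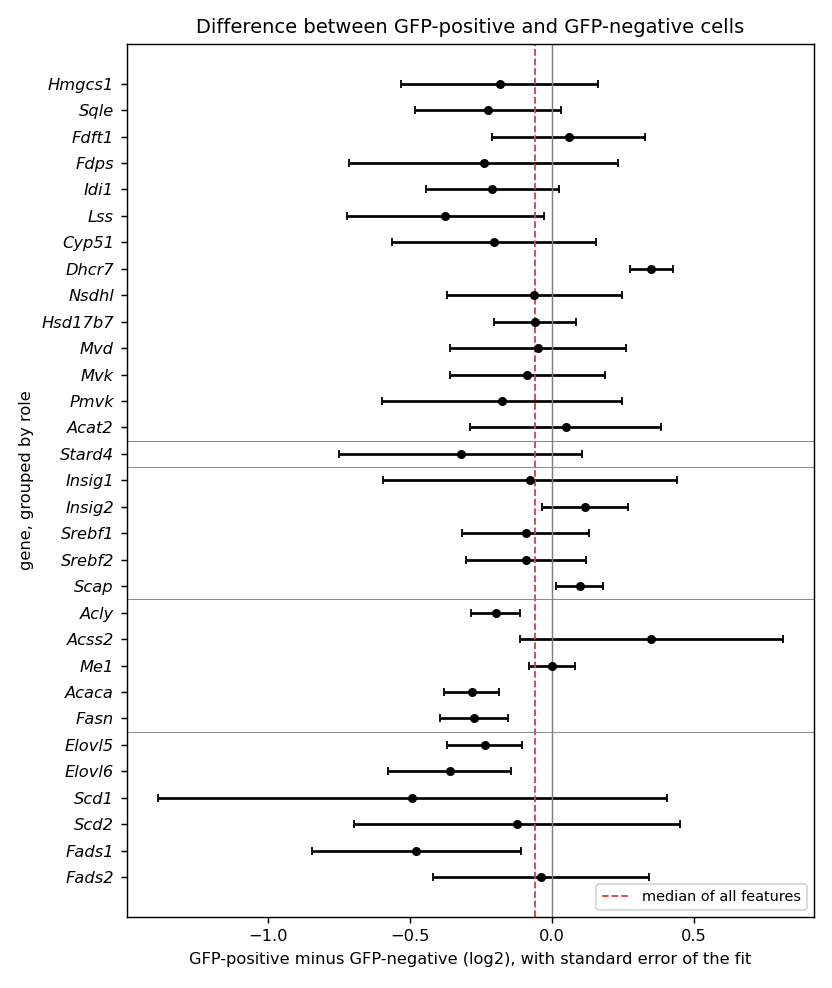
Difference of each member between GFP-positive and GFP-negative cells on the log2 scale (point) with the standard error of the fit (bar), in order of role. The dashed line is the median of all features, -0.06. Dhcr7 lies highest among the genes with narrow bars, at 0.35, and Scd1 has the widest bar, with a standard error of 0.90.

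In most of these genes the spread within groups was larger than the difference between groups. The SD within groups had a median of 0.43 over the members, against 0.18 over all features, and 22 of 31 members lay above percentile 75 of all features by that SD. The difference between groups was smaller than this SD in 25 of the 31 genes, against 10810 of 19701 features. The other 6 members were Dhcr7, Fasn, Acaca, Acly, Elovl5 and Elovl6. From the lowest to the highest of the 8 arrays, the members spanned a median of 1.22, against 0.59 over all features.

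The arrays were ordered alike from gene to gene. GFP-negative replicate 1 was the lowest GFP-negative array and GFP-positive replicate 3 the lowest GFP-positive array in 25 of 31 members (80.6%), against 16.3% of all features. These counts rest on the brightest probe of each gene: of the 18 other member probes 8 had both arrays lowest, so that 33 of 49 did over all probes. GFP-negative replicate 2 and GFP-positive replicate 4 were the highest of their groups in 25 members (80.6%), against 12.3% of all features. Both ends were so in 23 members (74.2%), against 6.32% of all features. The 31 genes were read from the same 8 RNA samples, so these counts describe these arrays and are not independent observations. Averaged over the 31 genes, the level was 2.10, 3.17, 2.91 and 2.68 on GFP-negative replicates 1 to 4, and 2.77, 2.60, 1.99 and 3.00 on GFP-positive replicates 1 to 4. The same average over all features stayed between 0.54 and 0.58 on the 8 arrays.

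**Figure D2:**
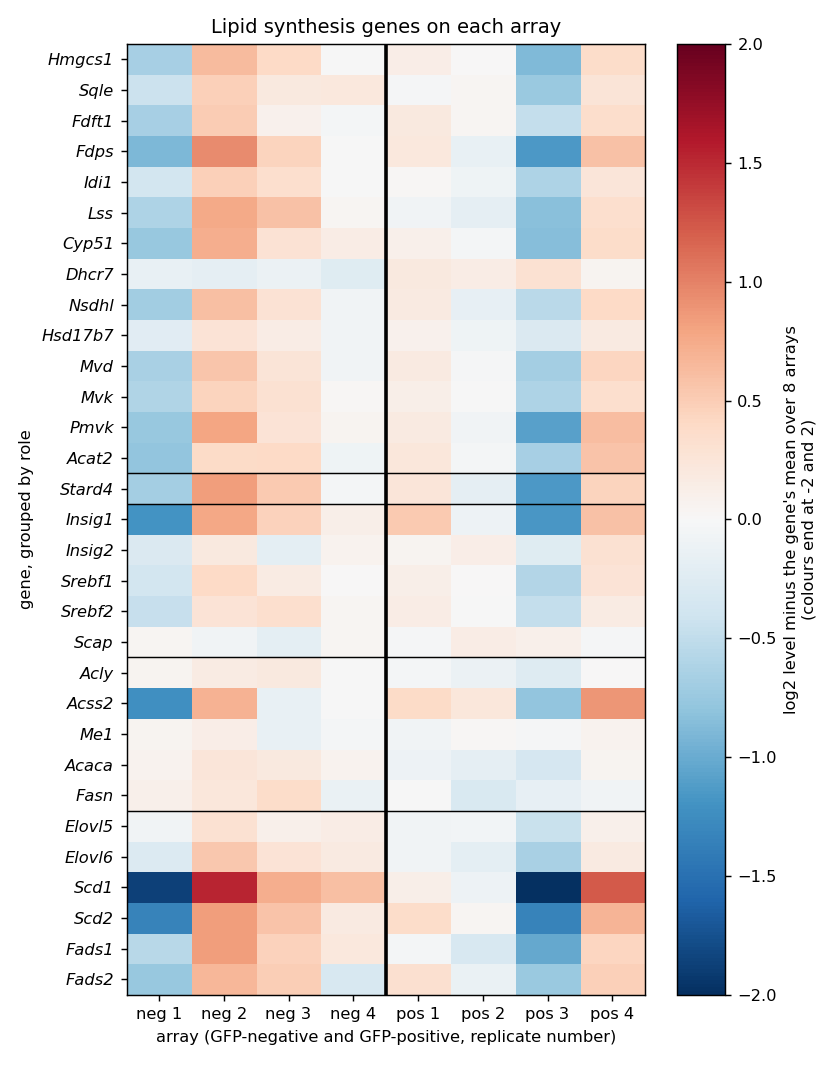
Level of each member on each array minus the gene's mean over the 8 arrays (colour, log2, ending at -2 and 2), with genes grouped by role and the GFP-negative arrays left of the thick line. Most genes are below their mean on GFP-negative replicate 1 and GFP-positive replicate 3 and above it on GFP-negative replicate 2 and GFP-positive replicate 4, and Dhcr7, Scap, Acaca, Acly, Fasn and Me1 do not follow that order.

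The upstream sequences of 4 members are shown because these genes act early in the sterol route (Hmgcs1), make fatty acids (Fasn) or regulate the SREBPs (Insig1, Srebf2), and because Fasn stands apart from the other 3 in its order of arrays. They are the 250 bases before the annotated start in RefSeq's GRCm38.p6, written 5′ to 3′ on the gene's strand, at chr13:119690101-119690350 (plus strand) for Hmgcs1, chr15:82147019-82147268 (plus) for Srebf2, chr5:28071162-28071411 (plus) for Insig1 and chr11:120824548-120824797 (minus) for Fasn. Capitals mark matches, on either strand, to TCACNCCA, a form of the sterol regulatory element bound by the SREBPs, and to CCAAT, the box bound by NF-Y (ATTGG on the other strand). In Fasn a CCAAT and an ATTGG overlap in 1 run of capitals.
Hmgcs1: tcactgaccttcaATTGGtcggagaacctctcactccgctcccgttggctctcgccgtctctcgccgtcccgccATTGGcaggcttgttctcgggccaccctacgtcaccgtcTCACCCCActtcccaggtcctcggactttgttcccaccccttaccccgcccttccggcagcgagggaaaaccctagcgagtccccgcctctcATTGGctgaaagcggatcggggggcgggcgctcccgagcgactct
Srebf2: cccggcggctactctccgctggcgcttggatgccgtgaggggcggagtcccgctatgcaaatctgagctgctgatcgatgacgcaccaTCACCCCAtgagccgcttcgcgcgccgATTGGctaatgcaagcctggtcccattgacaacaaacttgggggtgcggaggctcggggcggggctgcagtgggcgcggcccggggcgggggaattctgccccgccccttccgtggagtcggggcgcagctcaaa
Insig1: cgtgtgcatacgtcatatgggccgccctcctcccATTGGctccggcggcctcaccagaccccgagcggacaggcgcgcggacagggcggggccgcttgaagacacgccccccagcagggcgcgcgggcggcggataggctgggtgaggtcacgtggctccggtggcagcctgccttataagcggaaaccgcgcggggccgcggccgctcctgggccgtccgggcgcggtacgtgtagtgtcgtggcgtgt
Fasn: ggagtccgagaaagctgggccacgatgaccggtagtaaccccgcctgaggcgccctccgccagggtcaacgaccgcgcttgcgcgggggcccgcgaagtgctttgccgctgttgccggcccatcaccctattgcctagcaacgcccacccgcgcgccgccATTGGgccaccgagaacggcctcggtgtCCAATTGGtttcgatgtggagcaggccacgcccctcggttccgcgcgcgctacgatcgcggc

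A script searched the promoters of the 24 members found in the RefSeq table. Sqle, Fdft1, Fdps, Scd1, Scd2, Fads1 and Stard4 were not in it. TCACNCCA, which was shortened by its last base after the promoters had been seen, occurred in 2 of the 24 genes (8.33%), Hmgcs1 and Srebf2, against 4.2% of 27025 genes. CCAAT occurred in 18 of the 24 (75%), against 37.5% of 27025 genes. Of the genes without the shared lowest arrays, Dhcr7, Fasn and Me1 had CCAAT, and Scap, Acaca and Acly did not. Of the searched genes with those lowest arrays, only Acat2, Elovl6 and Fads2 lacked it. Whether the motif goes with the order of arrays was not tested. A match of letters is a description of the window and does not show that a factor binds there. The lack of a match, as for TCACNCCA in Fasn and Insig1, does not show that none binds.

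Hmgcs1, the cytosolic HMG-CoA synthase that feeds mevalonate synthesis, had levels of 4.49, 5.80, 5.56 and 5.16 on GFP-negative replicates 1 to 4 and 5.29, 5.17, 4.28 and 5.53 on GFP-positive replicates 1 to 4. Its lowest array in each group lay more than 0.5 below the next, and the groups overlapped. The means were 5.25 ± 0.57 (SD, n = 4) and 5.07 ± 0.54 (SD, n = 4), a difference of -0.18 ± 0.35 (SE, limma adjusted p = 0.790), while the highest array was 2.85-fold above the lowest. Its probe lies at mm9 13_random:114793-114852.

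Idi1, the isomerase that makes dimethylallyl diphosphate (probe at chr13:8891524-8891583, mm9), read 4.05, 4.89, 4.76 and 4.41 in GFP-negative and 4.45, 4.34, 3.81 and 4.67 in GFP-positive cells. The means, 4.53 ± 0.38 and 4.32 ± 0.37 (SD, n = 4 each), differed by -0.21 ± 0.23 (limma adjusted p = 0.636), and the groups overlapped. Sqle, the squalene epoxidase and a slow step of the route (chr15:59162688-59162747), read 5.12, 6.03, 5.74 and 5.76 in GFP-negative and 5.53, 5.59, 4.81 and 5.81 in GFP-positive cells. Again the first GFP-negative and the third GFP-positive array were lowest, each by more than 0.5. The Sqle difference was -0.23 ± 0.26 (limma adjusted p = 0.646).

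Lss, which closes squalene epoxide into lanosterol (chr10:76015992-76016051), read 0.48, 1.85, 1.68 and 1.14 in GFP-negative and 1.04, 0.91, 0.27 and 1.43 in GFP-positive cells, a 3.00-fold span over the 8 arrays. With means of 1.29 ± 0.62 and 0.91 ± 0.48 (SD, n = 4 each), the difference was -0.38 ± 0.35 (limma adjusted p = 0.557). Fdps, the farnesyl diphosphate synthase, had the widest span of the sterol enzymes, from 4.86 on GFP-positive replicate 3 to 6.95 on GFP-negative replicate 2, or 4.26-fold. Its group difference was -0.24 ± 0.47 (limma adjusted p = 0.800).

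Of the 14 sterol enzymes, 13 had GFP-negative replicate 1 and GFP-positive replicate 3 lowest, and 12 had the highest arrays in common as well. The thirteenth was Acat2, the cytosolic acetoacetyl-CoA thiolase, whose highest GFP-negative array was replicate 3. Those not described singly were the mevalonate pathway genes Mvk, Pmvk and Mvd, the squalene synthase Fdft1, the lanosterol demethylase Cyp51, and Nsdhl and Hsd17b7, which act in removing the sterol's methyl groups. With Acat2 these 8 genes had differences from -0.20 (Cyp51) to 0.06 (Fdft1) and limma adjusted p-values from 0.775 to 0.950. Fdft1 and Acat2 were below 0 with median scaling (-0.065 and -0.076), and Mvd and Mvk above 0 with quantile normalization (0.012 and 0.026). The mean over the 14 enzymes was 2.45 on GFP-negative replicate 1 and 2.39 on GFP-positive replicate 3, and lay between 3.00 and 3.57 on the other 6 arrays.

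Dhcr7, which encodes the reductase of the last step to cholesterol, was the exception among them. It read 2.32, 2.29, 2.35 and 2.23 on the GFP-negative arrays and 2.66, 2.61, 2.77 and 2.53 on the GFP-positive arrays (probe at chr7:151033874-151033933, mm9). All 4 GFP-positive values lay above all 4 GFP-negative values, and GFP-positive replicate 3, the lowest GFP-positive array for most members, was the highest here. The means were 2.30 ± 0.05 and 2.64 ± 0.10 (SD, n = 4 each), a difference of 0.35 ± 0.08 or 1.27-fold (limma unadjusted p = 0.00166, adjusted p = 0.0535). Its SD within groups stood at percentile 8.59 of all features. Over the alternatives run, the adjusted p of Dhcr7 ranged from 0.0247 to 0.483, past the threshold in 4 of 21, and the difference from 0.23 to 0.46.

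Stard4, a carrier of cholesterol between membranes, had the shared order of arrays. It was 0.81 on GFP-negative replicate 1 and 0.33 on GFP-positive replicate 3, and between 1.31 and 2.33 on the other arrays. Its difference was -0.32 ± 0.43 (limma adjusted p = 0.694).

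Among the regulators, Insig1, itself a classical SREBP target, had the widest spread. It read -1.17, 0.79, 0.47 and 0.14 in GFP-negative and 0.54, -0.08, -1.15 and 0.60 in GFP-positive cells (chr5:28404246-28404305, mm9). The lowest arrays of both groups were nearly level with each other, and the group means were 0.06 ± 0.86 and -0.02 ± 0.81 (SD, n = 4 each). The difference was -0.08 ± 0.52 (limma adjusted p = 0.945), against a 3.91-fold span over arrays.

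Srebf2, which encodes the SREBP that chiefly serves cholesterol synthesis, read 0.89, 1.63, 1.69 and 1.40 in GFP-negative and 1.50, 1.35, 0.88 and 1.51 in GFP-positive cells (chr15:82034765-82034824). It shared the lowest arrays, and its difference was -0.09 ± 0.21 (limma adjusted p = 0.833). Its probes gave differences of opposite sign, as did those of Nsdhl and Fads2. Srebf1, whose products chiefly serve fatty acid synthesis, read -1.51, -0.75, -0.98 and -1.14 in GFP-negative and -1.02, -1.13, -1.74 and -0.87 in GFP-positive cells (chr11:60012664-60012723). It had the full shared order and a difference of -0.09 ± 0.22 (limma adjusted p = 0.841).

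Scap (chr9:110287280-110287339) varied little: 4.48, 4.37, 4.25 and 4.48 in GFP-negative and 4.42, 4.59, 4.54 and 4.42 in GFP-positive cells. The groups overlapped and the means, 4.39 ± 0.11 and 4.49 ± 0.09 (SD, n = 4 each), differed by 0.10 ± 0.08 (limma adjusted p = 0.516), with the sign turned when arrays were scaled on their median (-0.025). Insig2, the second Insig gene, shared the array order of Insig1 over a narrower span, 1.51-fold, with a difference of 0.12 ± 0.15 (limma adjusted p = 0.690) that was -0.0069 with median scaling.

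**Figure D3:**
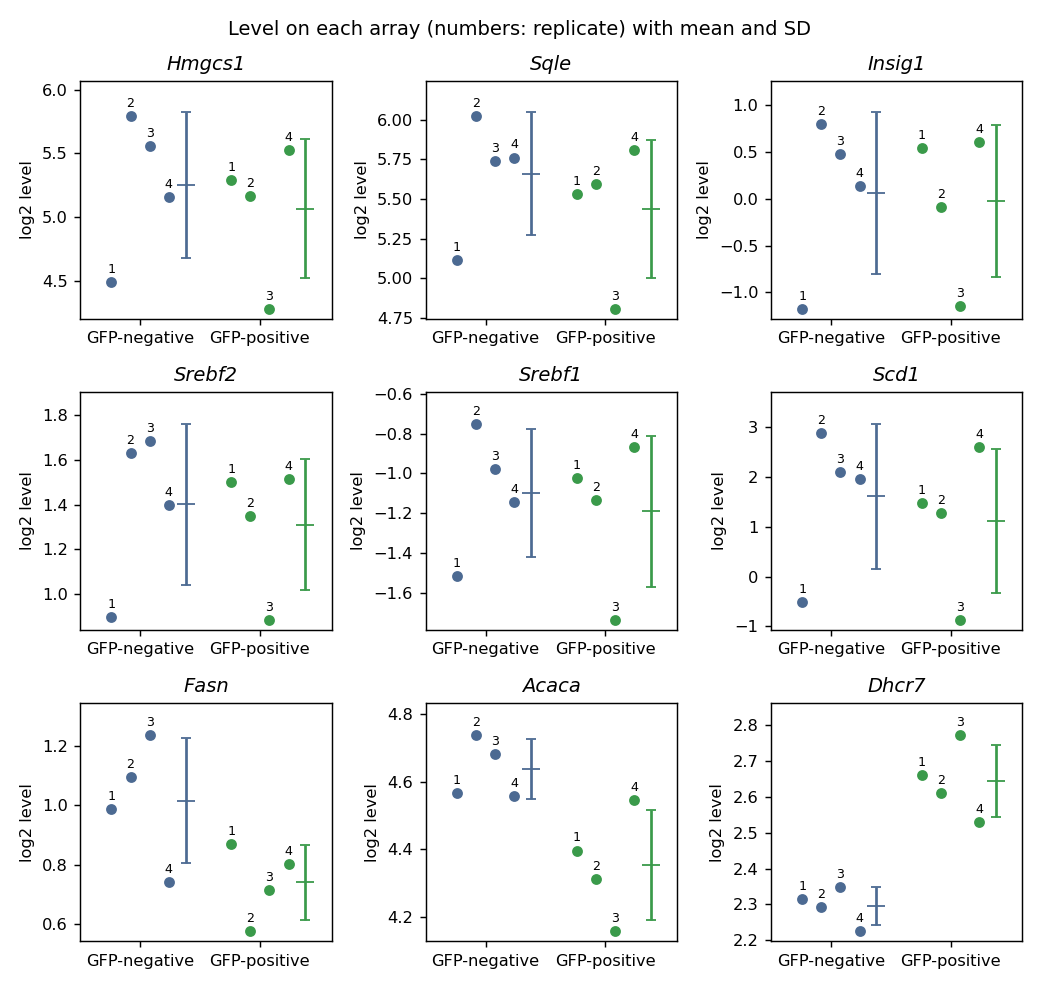
Log2 level of 9 members on each array (points, numbered by replicate) with the mean and SD of each group (bars), each panel on its own scale. In the panels from Hmgcs1 to Scd1, GFP-negative replicate 1 and GFP-positive replicate 3 are the low points of their groups, while Fasn, Acaca and Dhcr7 do not show both.

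The genes that supply and assemble fatty acids shared the order of the sterol enzymes only in part. On their brightest probes, 3 of 5 (Acaca, Me1 and Acss2) had GFP-negative replicate 2 and GFP-positive replicate 4 highest, against 12.3% of all features. GFP-positive replicate 3 was the lowest GFP-positive array in 3 of 5 (Acaca, Acly and Acss2), against 35.4% of all features. By the brightest probe, Acss2 was the 1 gene of these 5 with GFP-negative replicate 1 and GFP-positive replicate 3 lowest, but its second probe had GFP-negative replicate 3 lowest, and 1 of the dimmer Acaca probes had the shared lowest arrays. Acaca, the acetyl-CoA carboxylase that commits carbon to fatty acids, read 4.57, 4.74, 4.68 and 4.56 in GFP-negative and 4.40, 4.31, 4.16 and 4.55 in GFP-positive cells (chr11:84215093-84215152, mm9). The groups did not overlap, with 4.559 in the lowest GFP-negative and 4.546 in the highest GFP-positive array. The means were 4.64 ± 0.09 and 4.35 ± 0.16 (SD, n = 4 each) and the difference was -0.28 ± 0.10, or 1.22-fold lower in GFP-positive cells (limma unadjusted p = 0.0200, adjusted p = 0.142). A pair of other probes placed in the gene gave differences of -0.30 and -0.39, and a probe named Acaca but placed on chromosome 12 and not matched to a RefSeq symbol gave -0.32.

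Acly, the citrate lyase that makes cytosolic acetyl-CoA, read 5.84, 5.94, 5.98 and 5.78 in GFP-negative and 5.75, 5.66, 5.53 and 5.80 in GFP-positive cells (chr11:100337674-100337733). Only the highest GFP-positive value lay above the lowest GFP-negative one, and the difference was -0.20 ± 0.09 (limma unadjusted p = 0.0499, adjusted p = 0.218). Its other probe gave -0.18. Fasn, the fatty acid synthase (chr11:120667666-120667725), read 0.99, 1.10, 1.24 and 0.74 in GFP-negative and 0.87, 0.58, 0.71 and 0.80 in GFP-positive cells, so the groups overlapped. Its means were 1.02 ± 0.21 and 0.74 ± 0.13 (SD, n = 4 each), a difference of -0.28 ± 0.12 (limma unadjusted p = 0.0519, adjusted p = 0.221). Me1, the malic enzyme that supplies NADPH, spanned 1.21-fold over the 8 arrays, with a mean of 3.97 in both groups (limma adjusted p = 0.993). Acss2, which makes acetyl-CoA from acetate, spanned 4.32-fold, from -1.91 on GFP-negative replicate 1 to 0.20 on GFP-positive replicate 4, and its difference was 0.35 ± 0.46 (limma adjusted p = 0.694).

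All 6 elongases and desaturases had the shared order at both ends, and all 6 differences were below 0, with a median of -0.30. Scd1, a stearoyl-CoA desaturase that makes monounsaturated fatty acids, varied most of all members. It read -0.50, 2.89, 2.10 and 1.96 in GFP-negative and 1.48, 1.27, -0.87 and 2.60 in GFP-positive cells (chr19:44469387-44469446, mm9), a 13.5-fold span. Its SD within groups stood at percentile 99.7 of all features, and the difference was -0.49 ± 0.90 (limma adjusted p = 0.783). Scd2, its close paralogue, spanned 4.53-fold with the same lowest and highest arrays and a difference of -0.12 ± 0.57 (limma adjusted p = 0.922). How far the probes of Scd1 and Scd2 detect each other's mRNA was not tested.

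Fads1, the delta-5 desaturase of polyunsaturated fatty acids, read 1.96, 3.34, 2.98 and 2.72 in GFP-negative and 2.47, 2.20, 1.50 and 2.94 in GFP-positive cells (chr19:10270530-10270589). Its difference was -0.48 ± 0.37 (limma adjusted p = 0.476) and that of Fads2, which acts earlier in the same route, -0.04 ± 0.38 (limma adjusted p = 0.963), or 0.051 with array weights and 0.015 with its probes averaged. Elovl6, which elongates saturated fatty acids (chr3:129341248-129341307), read 3.15, 3.95, 3.69 and 3.59 in GFP-negative and 3.35, 3.23, 2.77 and 3.59 in GFP-positive cells. Elovl5, which elongates polyunsaturated ones (chr9:77832205-77832264), read 2.76, 3.14, 2.95 and 2.99 in GFP-negative and 2.76, 2.79, 2.40 and 2.94 in GFP-positive cells. Both overlapped between groups, with differences of -0.36 ± 0.22 and -0.24 ± 0.13 (limma adjusted p = 0.356 and 0.325).

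The 8 arrays shared a slide of 2 rows, each holding 2 arrays of either group. Row 1 held GFP-positive replicates 1 and 3 and GFP-negative replicates 2 and 4, and row 2 the others. Because the lowest GFP-positive and the highest GFP-negative array were both in row 1, the member differences split by row. Their median was -0.48 within row 1 and 0.27 within row 2, against -0.06 and -0.05 over all features, and 25 of 31 genes (80.6%) were below 0 in row 1 and above 0 in row 2, against 22.3% of all features. Lower in both rows were Fasn (-0.13 and -0.42), Acaca (-0.37 and -0.20), Acly (-0.22 and -0.18) and Elovl6 (-0.71 and -0.0081). Higher in both were Dhcr7 (0.46 and 0.24) and Scap (0.06 and 0.14).

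The test of the difference between rows, which also contrasts replicate numbers 1 and 3 with 2 and 4, called none of the members. In limma 236 of all features (1.2%) passed, the lowest adjusted p of a member was 0.141, and 1 member had an unadjusted p under 0.05, against 19.3% of all features. Scd1 had the widest split, -2.12 in row 1 and 1.14 in row 2. By the mean over the members, the lowest GFP-negative array (replicate 1, 2.10) was in row 2 and the lowest GFP-positive array (replicate 3, 1.99) in row 1. Slide row was known for each array, but passage and sort were not given by array. The part of each in the members' spread was not tested.

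**Figure D4:**
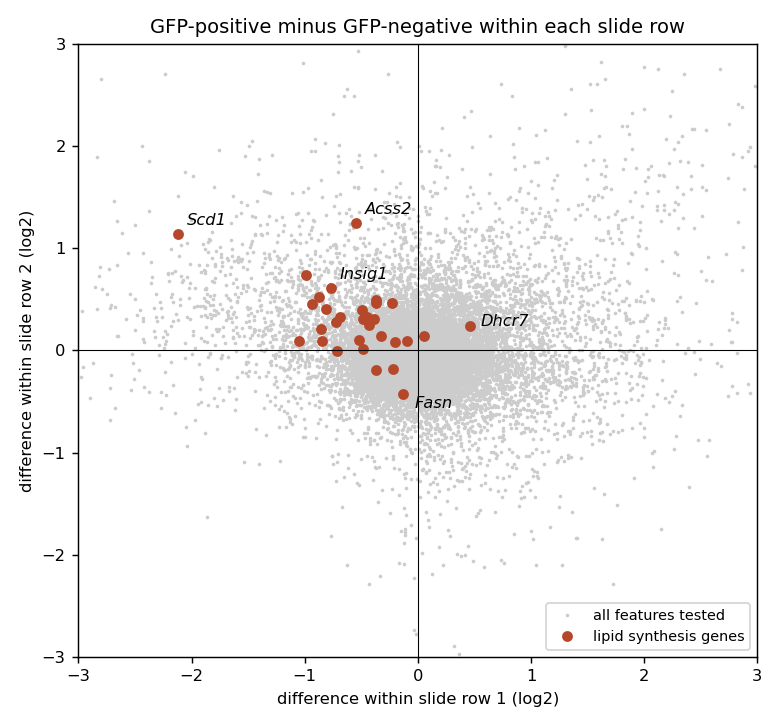
GFP-positive minus GFP-negative difference (log2) within slide row 1 (horizontal) and row 2 (vertical) for the 31 members (large points) and all features tested (grey). Most members lie in the upper left, 25 of 31, and Dhcr7 in the upper right. The axes leave out 95 features beyond 3 in either direction.

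Markers of other cells were set beside this order. The 5 fibroblast markers were all measured, and 4 of 5 had the same lowest and highest arrays as the lipid genes, against 6.32% of all features. Their mean level was 0.03, 2.99, 1.94 and 2.08 on GFP-negative replicates 1 to 4 and -0.25, 0.61, -1.81 and 1.41 on GFP-positive replicates 1 to 4. Their median difference was -1.81, with none of the 5 past the threshold (limma adjusted p from 0.104 to 0.380). At an unadjusted p under 0.05 in limma, 1 of the 5 was lower, against 15.1% of all features. The 6 epithelial markers had neither array lowest in any gene, with mean levels of 3.64, 2.88, 3.49 and 2.88 in GFP-negative and 3.92, 3.75, 4.09 and 3.30 in GFP-positive cells. None of the 6 passed the threshold (2 higher at an unadjusted p under 0.05 in limma, against 7.83% of all features). Fabp4, the adipocyte marker that was measured, did not have the shared order. Of the leukocyte markers, Cd68, a lysosomal protein abundant in macrophages, was higher by 1.00 in GFP-positive cells (limma adjusted p = 0.00436). The other measured leukocyte markers did not pass: Csf1r differed by 0.29 (limma adjusted p = 0.673) and Cd3e by -0.076 (limma adjusted p = 0.819). The part of these markers in the members' values was not tested, and in sorted populations fewer cells of a kind and less RNA per cell cannot be told apart.

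Other genes of lipid metabolism were read from 6 lists, with 69 of 71 genes measured (Thrsp and Cds1 were too dim). Of the 69, 1 rose in GFP-positive cells past the threshold in limma and none fell, while 2.56% of all features were called. At an unadjusted p under 0.05 in limma, 4 were higher and 7 lower, against 7.83% and 15.1% of all features. The median difference of the 69 was -0.06, that of all features. Between groups 10 of 69 did not overlap (14.5%), against 16.7% of all features.

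The gene that rose was Abcg1, a cholesterol exporter and LXR target. In its list, cholesterol transport, storage and LXR genes, Abcg1 was the 1 called of 13, against 2.56% of all features. It read 0.23, 0.07, 0.57 and 0.54 in GFP-negative and 1.73, 1.32, 1.31 and 1.25 in GFP-positive cells (chr17:31252580-31252639, mm9), with no overlap. The means were 0.35 ± 0.24 and 1.40 ± 0.22 (SD, n = 4 each), a difference of 1.05 ± 0.15 or 2.07-fold (limma adjusted p = 0.0147). It was 1.21 within row 1 and 0.88 within row 2. Without 1 array at a time it stayed past the threshold, and over all 21 alternatives its adjusted p ranged from 0.00702 to 0.369, past the threshold in 16. With the replicate number as a block the adjusted p was 0.0806.

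No gene of the other 5 lists passed. Among the 8 further enzymes of cholesterol synthesis, 7 had GFP-negative replicate 1 and GFP-positive replicate 3 lowest and 4 had the shared order at both ends. None of the 8 was called in limma, against 2.56% of all features, and 1 was lower at an unadjusted p under 0.05, against 15.1%. The median difference of the 8 was -0.15, against -0.06 over all features. For the lowest arrays the count was 5 of 12 (41.7%) in fatty acid oxidation and 4 of 15 (26.7%) in the further genes of fatty acid synthesis, elongation and activation. It was 3 of 12 (25%) in sterol sensing and SREBP processing, 3 of 13 (23.1%) in cholesterol transport, and 0 of 9 in triglyceride and phospholipid synthesis. Over all features the share was 16.3% for the lowest arrays and 6.32% for both ends.

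**Figure D5:**
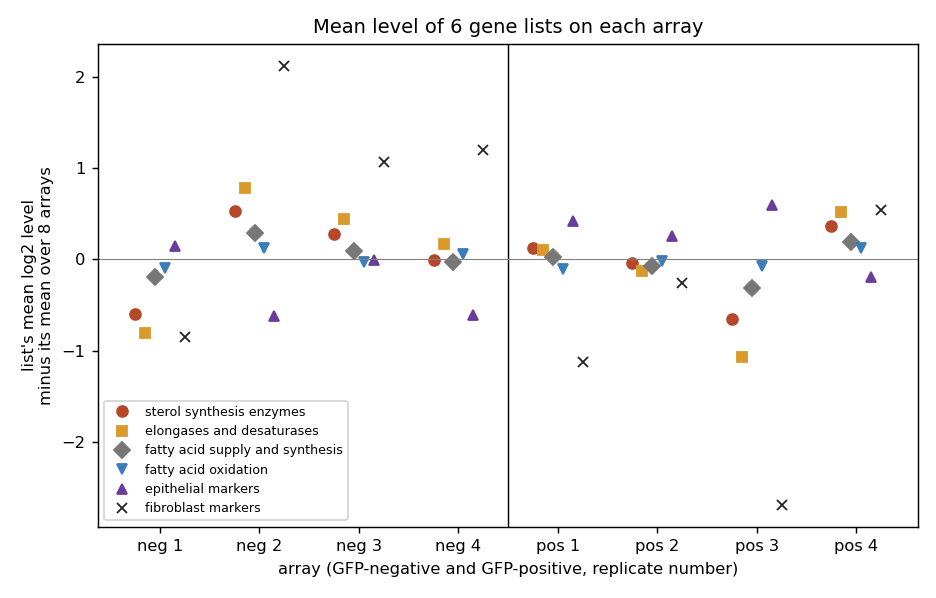
Mean log2 level of 6 gene lists on each array, minus the list's mean over the 8 arrays. The sterol enzymes and the elongases and desaturases are lowest on GFP-negative replicate 1 and GFP-positive replicate 3, fatty acid oxidation genes stay near 0, the fibroblast markers span the widest range, and the epithelial markers are highest on GFP-positive replicate 3.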

How the data were processed

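Each sample was 1 one-colour array of sorted MAM326 cells, grouped by the labels. Agilent Feature Extraction, named in the submitters' processing notes, was version 10.7.3.1 with protocol GE1_107_Sep09 and mm9 positions, per the file headers. The deposited intensity values were the processed signal, already background-corrected by that program, per the file headers. The authors' steps after extraction were not given in the sources used here.

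Control and outlier-marked spots (106 to 186 per array) were left out. No spot was saturated. Log2 intensities were set relative to each array's 75th percentile, and spots of a probe averaged. A probe was kept if well above background on at least 4 of 8 arrays (27574 of 55681), and each gene took its brightest kept probe, 19701 features. Symbols are those of the array annotation, with 27509 probes (49.4%) matched to RefSeq of GRCm38.p6. The exon of each probe was not analysed here. The number of arrays limits the precision.

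GFP-positive minus GFP-negative was fitted over all features with limma 3.58.1 (lmFit, eBayes, two-sided, Benjamini-Hochberg, threshold 0.05) in R 4.3.3, with data.table (version 1.17.8), and the steps were tested on simulated data. Per-array values are given for the 10 members lowest by p, for Srebf1, Srebf2, Insig1, Hmgcs1, Sqle, Fasn and Scd1, and for listed genes past the threshold. Members outside that rule (Fdps, Stard4, Acss2 and the like) are given by summary values. The members, lists, rule and settings were chosen with earlier results of these data known. The alternatives were other scalings, background corrections, filters, probe choices and variance models, blocks for slide row or replicate number, each row alone, and each array left out. The test of the difference between rows was added after seeing the data. Motif searches covered both strands of the 250 bases before each RefSeq start.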

Additional observations from a re-analysis of the deposited data

How the results depend on the processing

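Of the members, none passed the threshold in the fit reported. With quantile normalization, probes above background on all 8 arrays, an intensity trend with robust prior, or array weights the count was 1, Dhcr7 each time. It was 0 under every other alternative, 0 to 0 with each array left out. Of the other lipid genes, 1 passed, and 1 to 1 with each array left out. That count was 0 with median scaling, no filter on dim probes, the replicate block, within row 1 or within row 2, 4 with normexp, 4 with the trend and robust prior, and 7 with array weights. The number of all features called changed with the setting too, as given below for the replicate block and for each row. For the other settings the share of all features is not set beside these counts. These counts are therefore not read as particular to the members or the lipid genes.

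Of the 31 members, 26 turned sign under at least 1 alternative, and Dhcr7, Acaca, Acly, Fasn and Elovl6 under none. Among the members given array by array, those that turned were Scap with median scaling (-0.025), Insig1 with array weights (0.069) and, within row 2, Elovl5 (0.0088), Fads1 (0.10), Lss (0.094), Idi1 (0.10), Srebf1 (0.25), Srebf2 (0.14), Insig1 (0.61), Hmgcs1 (0.32), Sqle (0.27) and Scd1 (1.14). With 1 array left out, Srebf1 ranged from -0.23 to 0.089, Insig1 from -0.49 to 0.30, Srebf2 from -0.26 to 0.051, Hmgcs1 from -0.44 to 0.077 and Scd1 from -1.20 to 0.17. Each of these 5 was above 0 without GFP-positive replicate 3, Srebf1 and Insig1 also without GFP-negative replicate 2, and Srebf2 and Insig1 also without GFP-negative replicate 3. All of the other 15 members turned at least once, 11 of them within row 2, 4 within row 1, 11 when GFP-positive replicate 3 was left out and 10 when GFP-negative replicate 2 was. Of those 15, 3 turned with median scaling, 3 with quantile normalization and 1 with normexp. The cause was not tested. Median scaling moved the median of all features from -0.06 to -0.18, and members below 0 numbered 25 as reported, 29 with median scaling, 22 with quantile normalization and 24 with normexp.

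With the replicate number as a block, 0 members passed (1 at an unadjusted p under 0.05) and 215 of all features, against 505. The deviations of same-numbered arrays correlated at -0.027, 0.07, 0.021 and 0.185, so the numbers were not taken to pair the arrays, and no GFP-negative array correlated best with its own number. Over all features, GFP-negative replicate 1 correlated best with GFP-positive replicate 3 (0.603), 2 with 4 (0.653), 3 with 1 (0.428) and 4 with 2 (0.336), and the first 2 of these are the arrays lowest and highest for most members. No fit paired the arrays by these correlations. The count of all features called was 1048 within row 1 and 0 within row 2. Probes near background are the least certain.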

Other observations

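Among the listed lipid genes that missed the threshold, several lay beyond 0.3 on the log2 scale. Cpt1a, which admits long-chain fatty acids to mitochondria, was 1.28 ± 0.13 in GFP-negative and 1.76 ± 0.20 in GFP-positive cells (SD, n = 4 each), a difference of 0.48 ± 0.12 that was 0.49 within row 1 and 0.47 within row 2 (limma adjusted p = 0.0722). Lbr, a sterol reductase of the inner nuclear membrane, differed by -0.38 ± 0.09 (limma adjusted p = 0.0729). Lpin1, a phosphatidate phosphatase that also restrains SREBP activity, differed by 1.00 ± 0.29 (limma adjusted p = 0.104). Nr1h3, which encodes an LXR, was -0.59 ± 0.37 in GFP-negative and -1.34 ± 0.36 in GFP-positive cells, a difference of -0.75 ± 0.23 (limma adjusted p = 0.114). Abca1, the other main cholesterol exporter named here, was well above background on 6 of 8 arrays, and its difference was 1.92 ± 0.80 (limma adjusted p = 0.206), 0.02 within row 1 and 3.83 within row 2. The row 2 value rests on GFP-negative replicates 1 and 3, at -6.63 and -5.81, the lowest Abca1 levels of the 8 arrays. The others beyond 0.3 were Acsl1 (-0.56, limma adjusted p = 0.113), Erlin1 (-0.38, limma adjusted p = 0.0931), Nfyc (-0.302, limma adjusted p = 0.0709) and Ch25h (0.92, limma adjusted p = 0.334). Ch25h was well above background on 5 of 8 arrays. At an unadjusted p under 0.05 in limma, 4 of the 69 listed genes were higher and 7 lower, against 7.83% and 15.1% of all features. The genes named here were chosen after their values were seen.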
